A study of Mus musculus with 4 samples.

Results

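The genes described here are 7 mouse genes of creatine phosphate metabolism, oxygen storage and energy buffering in heart muscle, taken by name from the 21728 protein-coding genes of the GENCODE annotation of mm10. They are Ckm and Ckb, the muscle and brain forms of cytosolic creatine kinase, Ckmt2, the sarcomeric mitochondrial creatine kinase, Slc6a8, the plasma membrane transporter that brings creatine into cells, Ak1, cytosolic adenylate kinase, Mb, myoglobin, and Adprhl1, a cardiac member of the ADP-ribosylhydrolase family. Creatine kinases move high-energy phosphate from mitochondria, where ATP is made, to myofibrils and ion pumps, where it is spent. Adenylate kinase remakes ATP from ADP, and myoglobin stores oxygen and eases its diffusion in cardiomyocytes. All of these except Ckb, Slc6a8 and Ak1, which many tissues use, are known chiefly as genes of striated muscle.

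Accessible chromatin was measured by ATAC-Seq, in which the Tn5 transposase cuts and tags open DNA, in nuclei sorted from whole hearts of male C57BL/6 mice aged 8 to 12 weeks. All nuclei came from Cdh5-Cre/NuTRAP animals, in which a GFP tag is switched on by a Cre transgene under the promoter of the endothelial cadherin Cdh5, so that GFP marks cells of endothelial descent. The GFP+ group holds the endothelial (EC) nuclei, and the GFP- group holds the rest, a mixture of cardiomyocytes and other cell types of the heart. Each group had 2 replicates, sequenced from 100 to 50000 nuclei and deposited as 1 list of peaks called from both together, so no value has a replicate error and no test between the groups was made. The number of nuclei of a cell type and the accessibility of each nucleus cannot be told apart in such lists.

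There were 78912 GFP- peaks, covering 52.1 Mb, and 65008 GFP+ peaks, covering 41.8 Mb. Read numbers had been evened out between libraries by the authors before calling, and the reads behind a given peak are not analysed here. Peaks were compared by the percentile rank of their area (the signal summed over the length of a peak) within their own list, from 0 to 100, because areas in separately called lists do not share a scale. Marker genes of cardiomyocytes had a peak at a transcription start site (TSS) in both lists for 8 of 8 genes. Their ranks ran from 82.7 to 100.0 in GFP- nuclei and from 86.0 to 100.0 in GFP+ nuclei, with medians of 99.6 and 92.7. Of the endothelial markers, 5 of 8 were open at a start in GFP- and 8 of 8 in GFP+ nuclei, with median ranks of 33.1 and 76.1. In GFP+ nuclei 6 of the 8 ranked higher by more than 20 points, and Tek ranked lower, at 54.1 against 81.1. Fibroblast markers had one for 6 of 8 genes in the GFP- list and 2 of 8 in the GFP+ list, and mural cell markers for 6 of 6 and 3 of 6. Of 6 macrophage markers, Cd68 was open at a start, in both lists, and the other 5 had none in either. The part of these cell types in the values below was not tested.

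Promoters are shown first because each of the 7 genes had a peak at a start in both lists. RefSeq promoters of GRCm38.p6, the same assembly as mm10, were matched for 6 of the 7 genes, with 11 entries in all, not all of which are shown. Each line below gives the bases just upstream of a RefSeq start, up to 250, and stops where a GENCODE exon of the gene begins. Capitals mark matches, on either strand, to the searched words: the E-box CAGCTG, a further E-box with letters CAGGTG, the TEAD type word CATTCC, the GATA type word AGATAA, the nuclear receptor word AAGGTCA, the ETS type word AGGAAGT, and, by name alone, a MEF2 type word and the SRF CArG box.
Ckm promoter, chr7:19410844-19411024, plus strand: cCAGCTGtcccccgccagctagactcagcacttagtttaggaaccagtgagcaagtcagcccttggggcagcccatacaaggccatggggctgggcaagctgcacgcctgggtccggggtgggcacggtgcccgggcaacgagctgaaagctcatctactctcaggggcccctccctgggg
Ckb promoter, chr12:111672339-111672588, minus strand: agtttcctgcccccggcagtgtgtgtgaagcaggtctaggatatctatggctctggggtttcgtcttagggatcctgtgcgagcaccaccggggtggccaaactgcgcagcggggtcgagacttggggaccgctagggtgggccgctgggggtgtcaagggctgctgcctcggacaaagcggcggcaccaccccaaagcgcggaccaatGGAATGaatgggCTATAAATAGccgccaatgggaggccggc
Ckmt2 promoter, chr13:91876886-91877135, minus strand: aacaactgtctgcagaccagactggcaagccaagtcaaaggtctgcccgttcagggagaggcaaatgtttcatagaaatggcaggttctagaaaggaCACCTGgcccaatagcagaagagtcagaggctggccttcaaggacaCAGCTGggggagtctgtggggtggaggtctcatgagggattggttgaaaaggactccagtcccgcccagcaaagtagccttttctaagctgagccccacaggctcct
Ak1 promoter, chr2:32625187-32625436, plus strand: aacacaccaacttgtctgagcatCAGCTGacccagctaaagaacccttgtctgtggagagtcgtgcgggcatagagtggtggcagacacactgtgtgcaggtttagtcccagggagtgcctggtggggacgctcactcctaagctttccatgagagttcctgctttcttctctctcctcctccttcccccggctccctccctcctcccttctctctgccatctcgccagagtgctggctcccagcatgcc
Mb promoter, chr15:77022788-77023037, minus strand: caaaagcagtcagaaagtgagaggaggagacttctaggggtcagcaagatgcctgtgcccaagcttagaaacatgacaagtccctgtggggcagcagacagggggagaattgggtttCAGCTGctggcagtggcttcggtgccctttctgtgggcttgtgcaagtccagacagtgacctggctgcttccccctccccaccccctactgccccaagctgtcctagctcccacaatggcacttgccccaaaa
Adprhl1 promoter, chr8:13254163-13254412, minus strand: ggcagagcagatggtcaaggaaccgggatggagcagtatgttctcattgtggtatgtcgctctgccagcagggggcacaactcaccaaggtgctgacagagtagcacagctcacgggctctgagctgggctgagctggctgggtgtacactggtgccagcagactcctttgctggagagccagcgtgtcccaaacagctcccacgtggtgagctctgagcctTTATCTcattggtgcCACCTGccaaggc
In windows of 250 bases upstream of the 32851 RefSeq starts, CAGCTG was present in 13.0%, CAGGTG in 17.2%, CATTCC in 12.6%, AGATAA in 9.99% and the MEF2 type word in 3.20%. Ckm, Ak1 and Mb each held CAGCTG once in the stretch shown. Of the entries not shown, those at Ak1 start 32621758 and Mb start 77022727 also held CAGCTG. The entry at Ak1 start 32628390 held CAGGTG and AAGGTCA, and those at Ak1 start 32629500 and Mb start 77050668 held none of the words. Ckmt2 held CAGCTG 107 bases and CAGGTG 153 bases upstream of its start. Adprhl1 held CAGGTG 13 bases and AGATAA 28 bases upstream. The Ckb promoter held CATTCC 41 bases and the MEF2 type word 29 bases upstream of its start, and the latter match also spells TATAAA, the core of a TATA box, so these words overlap there. A match in these letters is a description of the sequence and not of a bound site.

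Beyond the promoters, 4 peaks are shown because the comparisons below turn on them. Each line gives 300 bases centred on the summit of a peak, in the direction of the gene named, with capitals as above.
Ckm upstream peak, chr7:19409864-19410163, plus strand: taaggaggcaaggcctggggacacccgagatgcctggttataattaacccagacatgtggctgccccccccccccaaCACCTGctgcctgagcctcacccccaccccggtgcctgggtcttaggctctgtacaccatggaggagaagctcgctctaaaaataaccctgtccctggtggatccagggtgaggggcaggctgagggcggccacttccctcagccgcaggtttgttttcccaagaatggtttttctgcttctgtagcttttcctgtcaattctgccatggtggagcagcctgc
Mb intron peak, chr15:77037405-77037704, minus strand: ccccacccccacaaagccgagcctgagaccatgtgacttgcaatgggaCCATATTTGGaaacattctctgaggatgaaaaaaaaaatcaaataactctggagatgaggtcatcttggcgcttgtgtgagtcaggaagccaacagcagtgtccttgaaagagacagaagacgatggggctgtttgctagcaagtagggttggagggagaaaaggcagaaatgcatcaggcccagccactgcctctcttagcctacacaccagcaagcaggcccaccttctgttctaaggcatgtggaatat
Ckb downstream peak, chr12:111664392-111664691, minus strand: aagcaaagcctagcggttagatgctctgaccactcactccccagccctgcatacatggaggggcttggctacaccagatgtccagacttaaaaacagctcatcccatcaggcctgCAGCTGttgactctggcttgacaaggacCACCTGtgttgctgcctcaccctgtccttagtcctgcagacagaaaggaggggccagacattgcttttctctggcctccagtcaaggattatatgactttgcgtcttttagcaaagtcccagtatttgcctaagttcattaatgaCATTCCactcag
Ak1 downstream peak, chr2:32642887-32643186, plus strand: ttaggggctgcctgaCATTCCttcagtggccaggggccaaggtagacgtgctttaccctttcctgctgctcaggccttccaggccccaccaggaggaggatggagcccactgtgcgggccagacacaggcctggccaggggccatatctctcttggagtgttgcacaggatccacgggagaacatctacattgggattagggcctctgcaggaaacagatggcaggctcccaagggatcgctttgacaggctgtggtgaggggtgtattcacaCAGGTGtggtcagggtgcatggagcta
The Ckm stretch is the summit of a GFP- peak 1011 bp upstream of the nearest Ckm start, a region that 1 GFP+ peak spans together with the promoter. The Mb stretch has the same summit in both lists, 11430 bp upstream of the nearest Mb start, which had no peak in either list. The nearest protein-coding start to it was that of Apol6, at 7174 bp. The stretch holds the SRF CArG box, which was present in 1.64% of GFP- and 1.56% of GFP+ peak windows of the same length. The Ckb stretch lies downstream of the gene under the highest-ranked GFP- peak of the 7 loci that had no GFP+ counterpart, and holds both E-box words and the TEAD type word. The Ak1 stretch lies between Ak1 and Eng under the highest-ranked GFP+ peak that had no GFP- counterpart, and holds the TEAD type word and the E-box CAGGTG.

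All 7 genes had a TSS peak, defined as a peak overlapping any annotated transcript start with 250 bp to each side, in the GFP- list and in the GFP+ list. Among all protein-coding genes, 61.8% had one in the GFP- list, 59.7% in the GFP+ list and 58.8% in both. The 7 genes have 37 distinct annotated starts, of which 27 lay under a peak in both lists, 10 in neither and 0 in only 1 list. Of all 93127 distinct starts of protein-coding genes, 51.1% had a peak in the GFP- list, 49.3% in the GFP+ list, 48.2% in both and 3.91% in only 1. The 10 starts without a peak were the most upstream, non-coding start of Ckm, 6 internal starts of Slc6a8, and 3 starts of Mb upstream of its main promoter.

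Each gene took the rank of its highest TSS peak. The median rank of the 7 genes was 94.1 in GFP- and 96.0 in GFP+ nuclei, compared with 90.3 and 88.6 over the 13624 genes with a TSS peak in either list. The median difference, GFP+ minus GFP-, was 0.0153 points for the 7 genes and -0.815 over all genes. A difference above 20 points, the size counted here as a change, was seen for 1 of the 7, Ckb, which was lower in GFP+ nuclei. A drop above 20 points was found for 7.34% of all genes and a gain above 20 points for 1.95%, and 0 of the 7 gained more than 20.

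**Figure D1:**
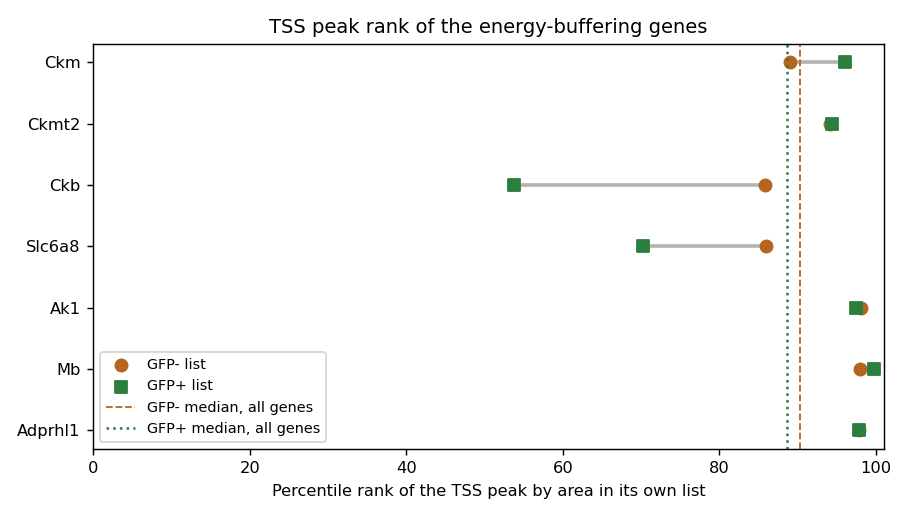
Percentile rank of the TSS peak by area in its own list, for each of the 7 genes. Circles stand for the GFP- list, squares for the GFP+ list, and vertical lines for the medians over all genes (90.3 and 88.6). Ckmt2, Ak1, Mb and Adprhl1 lay above both lines in both lists, and Ckb and Slc6a8 lay below them in both.

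**Figure D2:**
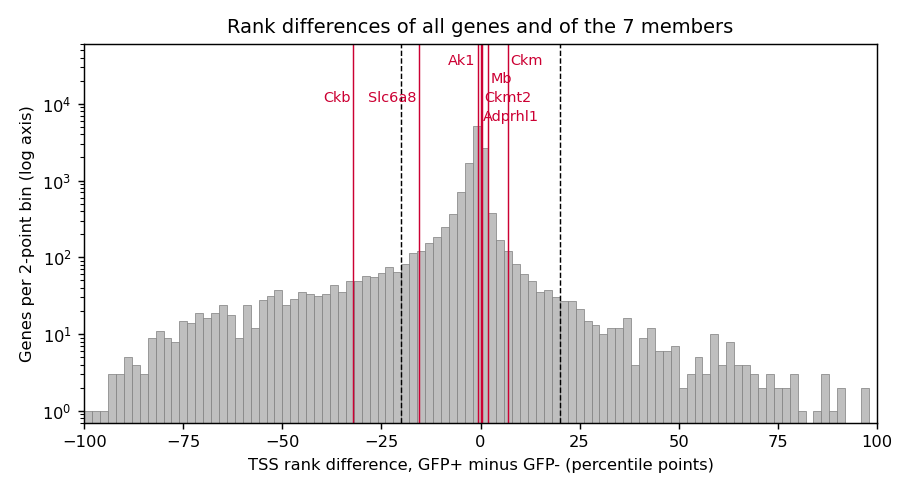
Number of genes in each bin of 2 percentile points of the TSS rank difference, GFP+ minus GFP-, over 13624 genes, on a log axis. Red lines mark the 7 genes and dashed lines mark differences of 20 points in either direction. Ckb lies beyond the lower dashed line and the other 6 genes lie between the lines.

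Ckm (chr7:19404776-19422841, plus strand) encodes the creatine kinase bound at the M line of the sarcomere. Its TSS peak ranked 89.0 in GFP- nuclei, as number 8644 of its list, and 96.0 in GFP+ nuclei, as number 2619. The higher rank in the GFP+ list came with a longer peak, of 2114 bp against 1150 bp. In the GFP- list a separate peak of 1132 bp, with rank 79.9, lay just upstream, and the GFP+ peak overlapped both. With peaks less than 200 bp apart joined, Ckm ranked 96.0 in GFP- and 96.7 in GFP+ nuclei. The direction turned with other measures of a peak. Ranked by summit p-value, Ckm was at 92.7 in GFP- and 91.5 in GFP+ nuclei (-1.17), and by area per bp at 87.2 and 82.1 (-5.09). A muscle enhancer a short way upstream of this promoter is well studied, and whether the upstream peak is that element was not tested.

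Within the Ckm gene, an intronic peak 916 bp downstream of the nearest start ranked 57.2 in GFP- nuclei, and its GFP+ counterpart, at 904 bp, ranked 51.5. Both of these held the MEF2 type word, which was present in 6.22% of all GFP- and 6.66% of all GFP+ peak windows. The peak near the 3′ end of the gene ranked 78.6 and 78.5. A peak 2621 bp downstream of the nearest start in GFP- nuclei ranked 56.3, and its GFP+ counterpart ranked 37.4. The Ckm gene body was covered by peaks over 28.8% of its length in GFP- and 25.6% in GFP+ nuclei. All 16 GFP- peaks of the gene and its 50 kb flanks overlapped a GFP+ peak, and 14 of 17 GFP+ peaks (82.4%) overlapped a GFP- peak. Over the whole lists these shares were 69.7% and 86.6%.

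Ckb (chr12:111669361-111672338, minus strand) encodes the creatine kinase of brain, smooth muscle and many other tissues. Its TSS peak ranked 85.8 in GFP- nuclei and 53.7 in GFP+ nuclei, a difference of -32.1 points. The GFP- list had a peak of 2353 bp over the promoter and most of the gene, and the GFP+ list had 3 peaks in the same span, of 665, 731 and 583 bp, with ranks of 53.7, 48.6 and 25.6. The size of the drop differed between measures. Ranked by summit p-value, Ckb was at 69.3 in GFP- and 39.8 in GFP+ nuclei, a difference of -29.5. With peaks less than 200 bp apart joined, the ranks were 85.0 and 75.8, a difference of -9.20, and with peaks ranked by area per bp they were 31.7 and 25.6, a difference of -6.08. The summed area over the whole region, scaled to each list's total, was 0.768 times as large in GFP+ as in GFP- nuclei, over 1979 bp and 2353 bp of peak. Over 12865 genes the median of this ratio was 1.13, with quartiles of 1.02 and 1.22, and 7.71% of genes had a ratio below that of Ckb. The area per bp of peak, not scaled to the list totals, gave a GFP+ to GFP- ratio of 0.698, with a median over all genes of 0.912. Without that scaling the ratio can be read only against that median.

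Beyond the Ckb promoter, a peak across the 3′ end of the gene ranked 94.0 in GFP- and 84.9 in GFP+ nuclei, above the promoter peak in both lists. Further downstream, the GFP- list held 4 peaks with no GFP+ counterpart. Of all 15 GFP- peaks of the locus 66.7% had one, near the 69.7% of all GFP- peaks. The highest-ranked of the 4 downstream peaks without a counterpart was 933 bp long and 6943 bp from the nearest Ckb start. It had the rank of 84.4 and is the downstream stretch printed above. The other 3 ranked 34.8, 41.7 and 38.2. These 4 were most of the 5 GFP- peaks of the locus that had no counterpart. All 12 GFP+ peaks of the Ckb locus overlapped a GFP- peak, compared with 86.6% of all GFP+ peaks. Upstream of Ckb, peaks at a distance of 5680 bp (GFP- summit) and 5688 bp (GFP+ summit) lay over the start of Trmt61a and ranked 90.1 and 86.5, and an intergenic peak about 15 kb upstream ranked 94.6 and 93.3. The Ckb gene body was covered over 83.9% in GFP- and 69.1% in GFP+ nuclei, the highest coverage of the 7 genes in both lists.

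**Figure D3:**
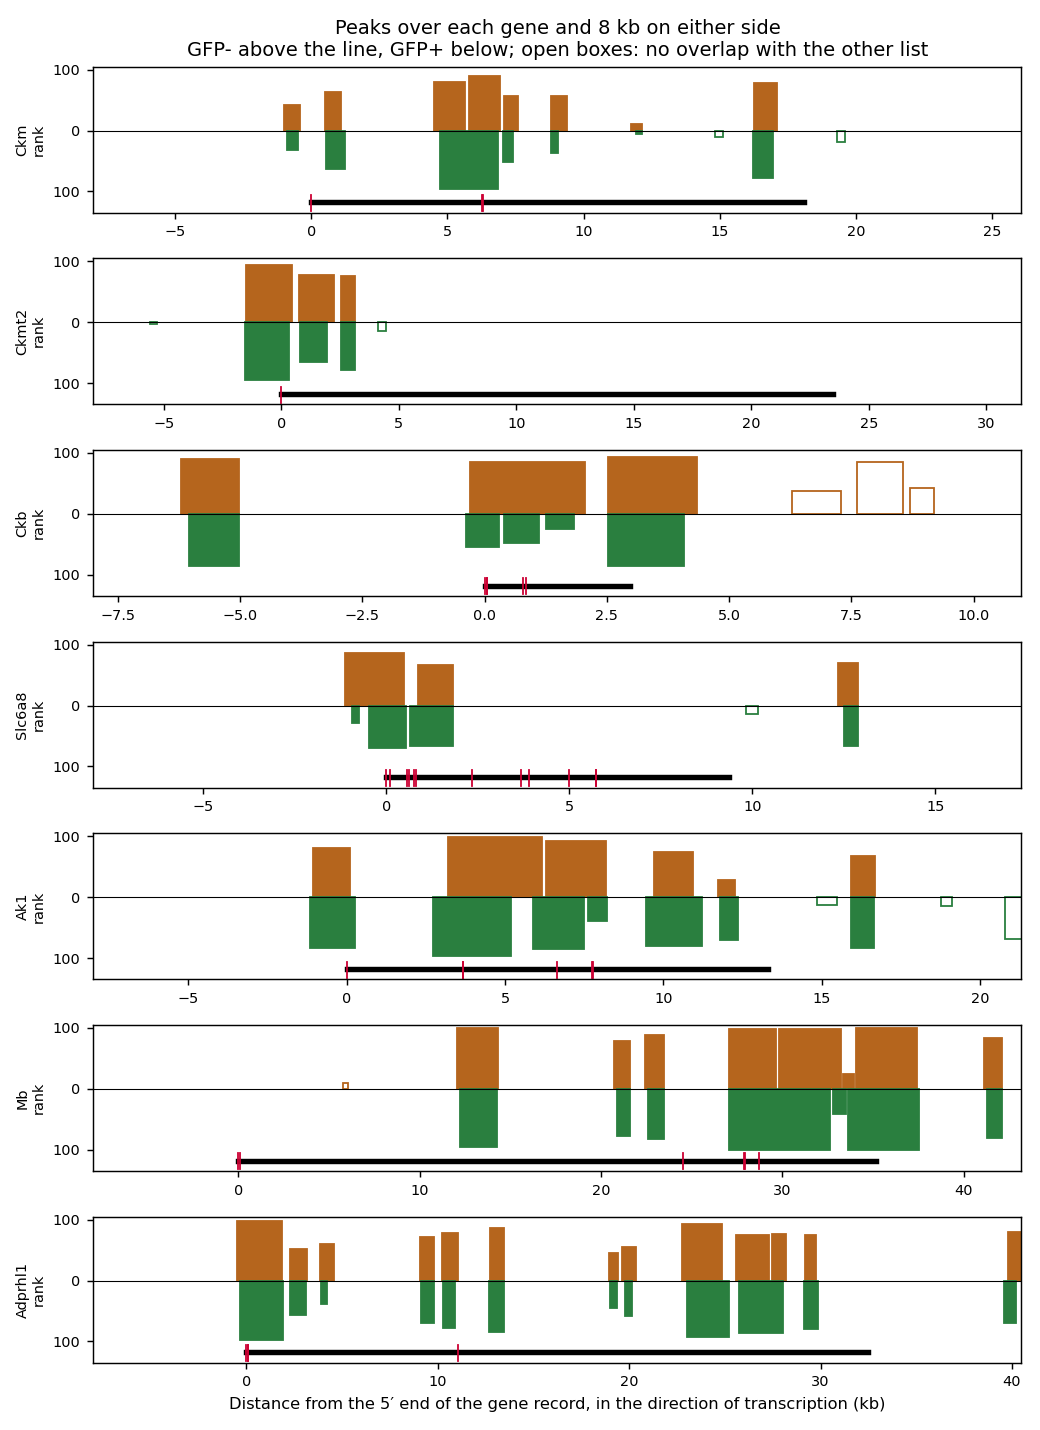
Peaks over each gene record and 8 kb to each side, in kb from the 5′ end of the record in the direction of transcription. Box width is the extent of a peak and box height its percentile rank, with GFP- above and GFP+ below the line. Open boxes had no overlap with the other list. The black bar is the gene record and red ticks are annotated starts. The 3 GFP+ boxes at the start of Ckb lie within or next to the span of 1 GFP- box of 2353 bp, and the GFP+ box at the Ckm promoter overlaps 2 GFP- boxes.

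Ckmt2 (chr13:91853387-91876885, minus strand) encodes the creatine kinase of the mitochondrial intermembrane space in heart and skeletal muscle. It has 1 annotated start, under a peak of 1962 bp with rank 94.1 in GFP- nuclei and of 1882 bp with rank 94.4 in GFP+ nuclei. The difference of 0.349 points was above that of 80.5% of all genes. The summit lay 634 bp upstream of the start in the GFP- list and 119 bp upstream in the GFP+ list. The window at the GFP- summit held 2 matches to the MEF2 type word, and that at the GFP+ summit held both E-box words. Both windows lie under the peak of either list, so these words do not differ between the lists. Further into the gene, an intronic peak 2710 bp from the start had its summit at the same base in both lists and ranked 76.3 and 78.0. The next intronic peak ranked 77.7 in GFP- and 65.6 in GFP+ nuclei. Peaks covered 10.9% of the gene body in GFP- and 10.3% in GFP+ nuclei, the lowest coverage of the 7 genes.

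Slc6a8 (chrX:73673150-73682502, plus strand) had the second largest difference. Its TSS peak ranked 85.9 in GFP- and 70.3 in GFP+ nuclei, -15.6 points, which is within the 20 points used here. A lower value was found for 8.92% of all genes. The GFP- peak was 1624 bp long, and the GFP+ list had a peak of 1010 bp with a separate peak of 213 bp upstream, with rank 28.9. An intronic peak a little downstream, over later annotated starts, ranked 66.2 and 65.9. The difference passed 20 points with peaks ranked by their summit p-value (-21.9) or by area per bp (-22.0), and was -3.13 with peaks less than 200 bp apart joined. The summed area ratio was 0.873. Peaks covered 15.3% of the gene body in GFP- and 18.3% in GFP+ nuclei.

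Ak1 (chr2:32621758-32635058, plus strand) had 3 TSS peaks in GFP- and 4 in GFP+ nuclei over 6 distinct starts. The highest lay over the second and the third start, which are next to each other, with rank 98.1 in GFP- and 97.4 in GFP+ nuclei. The first start ranked 81.6 and 83.5, and the fourth 92.9 and 85.7. The last starts of the gene ranked 92.9 in GFP- nuclei, under a peak of 1902 bp that also covers the fourth, and 38.7 in GFP+ nuclei, under a separate peak of 582 bp. The order of the starts thus differed between the lists at the 3′ side of the promoter region, where the GFP+ list divided what was 1 peak in the GFP- list. An intronic peak 2381 bp downstream of the nearest start ranked 73.6 in GFP- nuclei and its counterpart ranked 80.9 in GFP+ nuclei, and an exonic peak near the 3′ end ranked 28.4 and 70.5. Peaks covered 50.7% of the gene body in GFP- and 54.5% in GFP+ nuclei.

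The downstream flank of Ak1 runs into Eng, which encodes endoglin, a transforming growth factor beta co-receptor of endothelial cells. There the GFP- list held 7 peaks, 6 of them shared, and the GFP+ list held 14, of which 8 had no GFP- counterpart, while 86.6% of all GFP+ peaks had one. The highest-ranked of these 8, at 68.3, was 962 bp long and lay 3558 bp from the nearest Eng start. The TSS peak of Eng ranked 70.9 in GFP- and 79.4 in GFP+ nuclei, and the other 4 shared peaks inside Eng did not all differ in the same direction. They ranked 45.7, 76.8, 69.2 and 65.5 in GFP- nuclei and 45.6, 89.9, 85.0 and 9.08 in GFP+ nuclei. All 8 lay between Ak1 and Eng or inside Eng. Upstream of Ak1, a peak over a start of St6galnac6 ranked 99.2 and 98.3. Of 12 upstream GFP- peaks 11 were shared, and of 15 upstream GFP+ peaks 13 were shared, against 69.7% and 86.6% of all peaks.

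**Figure D4:**
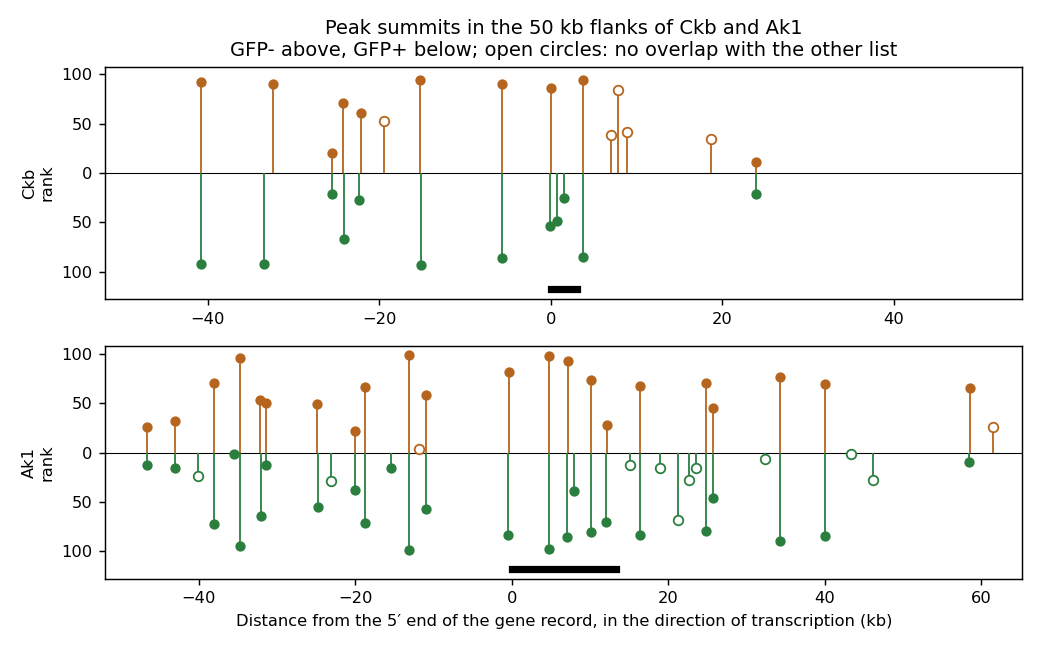
Percentile rank of each peak, placed at its summit in kb from the 5′ end of the gene record, for Ckb and Ak1 with 50 kb to each side. GFP- peaks point up and GFP+ peaks point down, and open circles had no overlap with the other list. Open GFP- circles stand downstream of Ckb, the highest at rank 84.4, and 8 open GFP+ circles stand downstream of Ak1, the highest at rank 68.3.

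Mb (chr15:77015487-77050670, minus strand) had the highest TSS rank of the 7 genes in GFP+ nuclei. The peak at its main starts ranked 97.9 in GFP- nuclei, as number 1619, and 99.8 in GFP+ nuclei, as number 103. The summit was at the same base in both lists, 5 bp upstream of the nearest start. The GFP- peak was 2593 bp long with a neighbour of 3383 bp and rank 98.1 further into the gene, and the GFP+ list had a peak of 5564 bp over both. With peaks less than 200 bp apart joined, both lists gave Mb a rank of 100.0. The direction turned with other measures, to -0.103 with peaks ranked by summit p-value and to -9.88 by area per bp, where Mb ranked 87.2 in GFP- and 77.3 in GFP+ nuclei. A peak across the 3′ end of the gene, with its summit outside the gene record, was 3361 bp long with rank 99.7 in GFP- and 3895 bp long with rank 99.8 in GFP+ nuclei.

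The long gene record of Mb reaches upstream to starts with no peak, and contains further shared intronic peaks between them and the main promoter. The peak printed above, 11430 bp upstream of an annotated Mb start that had no peak, ranked 99.2 in GFP- and 96.2 in GFP+ nuclei. Between it and the main promoter, another 2 shared intronic peaks, with GFP- summits 1673 bp and 3355 bp upstream of an annotated start that itself had no peak, ranked 88.1 and 77.8, and their GFP+ counterparts ranked 81.9 and 77.1. A low peak of rank 9.33 was found in the GFP- list alone, at the start of Apol6, which overlaps the Mb record on the other strand. All 14 GFP+ peaks of the Mb locus overlapped a GFP- peak, and 15 of 20 GFP- peaks overlapped a GFP+ peak. Peaks covered 34.8% of the Mb gene body in GFP- and 32.7% in GFP+ nuclei.

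Adprhl1 (chr8:13221663-13254162, minus strand) had the smallest difference of the 7. Its TSS peak ranked 97.8 in both lists, with lengths of 2360 bp and 2248 bp and the summit at the same base, 99 bp upstream of the nearest start. A further annotated start inside the gene ranked 77.3 and 77.2. All 19 GFP- and all 18 GFP+ peaks of the locus were shared, compared with 69.7% and 86.6% of all peaks. An intronic peak at 12445 bp from the nearest start ranked 92.1 in GFP- nuclei, and its GFP+ counterpart ranked 93.5, and both held the MEF2 type word. The gene was thus open at matching places from its start to its end in both lists. The intronic peak at 3908 bp ranked 59.5 and 38.1, the widest gap among the peaks within the gene. Peaks covered 37.7% of the gene body in GFP- and 34.3% in GFP+ nuclei.

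Over the 7 loci together, the genes with their 50 kb flanks held 109 GFP- and 112 GFP+ peaks. All 11 GFP- and 13 GFP+ TSS peaks of the 7 genes were shared. Of the peaks within the gene bodies, 27 of 28 GFP- peaks (96.4%) and 25 of 27 GFP+ peaks (92.6%) were shared, compared with 65.8% and 83.5% of all peaks within protein-coding genes and away from starts. The exact 95% binomial intervals, which cover counting error only, were 81.7 to 99.9% and 75.7 to 99.1%. The shares over all protein-coding genes were not matched for peak rank, and the body peaks of the 7 genes had median ranks of 74.8 and 69.8. Adprhl1 alone gave 10 of the 28 and 9 of the 27 body peaks, all shared. Of body and flank peaks together, 83 of 98 GFP- peaks (84.7%, interval 76.0 to 91.2%) and 83 of 99 GFP+ peaks (83.8%, interval 75.1 to 90.5%) were shared, compared with 69.7% and 86.6% of all peaks. Flank peaks include the starts of neighbouring genes, and the highest-ranked flank peak of both lists, at 99.9, lay over the start of Ppp1r13l in the upstream flank of Ckm. Peaks without a counterpart were mostly small. The median rank of the 15 GFP- peaks without a counterpart was 25.9, and that of the 16 such GFP+ peaks was 15.2, against 70.7 and 65.9 for the shared peaks.

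The summed area at the starts, scaled to each list's total, was in a GFP+ to GFP- ratio of 1.32 for Ckm, 1.24 for Ckmt2, 1.06 for Ak1, 1.12 for Mb and 1.19 for Adprhl1. Over all genes the median ratio was 1.13, with quartiles of 1.02 and 1.22. Ckm and Ckmt2 lay above the upper quartile, Ak1, Mb and Adprhl1 between the quartiles, and Ckb and Slc6a8 below the lower one. Ratios of area per bp of peak were not scaled to the list totals. They were 1.09 for Ckm, 0.986 for Ckmt2, 0.805 for Ak1, 0.840 for Mb and 0.999 for Adprhl1. Over all genes their median was 0.912, and they can be read only against it.

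Peaks covered more of these genes than of most genes. Median coverage of the gene body was 34.8% in GFP- and 32.7% in GFP+ nuclei for the 7 genes, and 5.10% and 4.34% across every gene that had one or more TSS peaks in these lists. Among all 21728 protein-coding genes, with or without a TSS peak, each of the 7 lay between percentile 82.0 and 99.3 in the GFP- list. In the GFP+ list they lay between 83.6 and 99.0. Coverage was not adjusted for gene length. Coverage was lower in GFP+ nuclei for 5 genes and higher for Slc6a8 and Ak1, and the widest difference was that of Ckb, at -14.8 percentage points. The whole GFP+ list also covered less than the GFP- list, 41.8 Mb against 52.1 Mb.

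**Figure D5:**
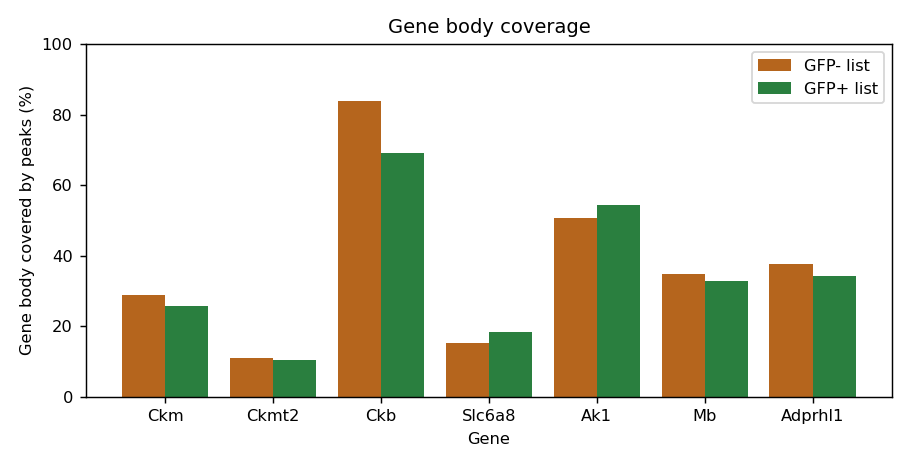
Percent of each gene body covered by peaks of the GFP- list and of the GFP+ list. Ckb has the tallest bars, 83.9% and 69.1%, and Ckmt2 the shortest, 10.9% and 10.3%.

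The searched words were counted around the summits of the TSS and gene body peaks of the 7 genes, 39 in the GFP- and 40 in the GFP+ list. Most of these regions were present in both lists, and a shared region whose summits differ can differ in its counted words. CAGCTG was present in 28.2% of these GFP- and 32.5% of these GFP+ peaks, against 27.4% and 24.0% of all peaks. CAGGTG was present in 28.2% and 32.5%, against 17.2% and 20.4%. The MEF2 type word was present in 10.3% and 7.50%, against 6.22% and 6.66%. CATTCC was present in 3 of 39 and 4 of 40 peaks, against 18.6% and 17.6% of all peaks, and AGGAAGT in 1 of each, against 9.42% and 10.1%. AGATAA was present in 4 and 2 peaks, AAGGTCA in 2 and 2 and the SRF CArG box in 2 and 1, and of all peaks 13.4% and 13.1%, 7.19% and 7.69%, and 1.64% and 1.56% held them. With 1 to 13 peaks behind each word, these counts only describe the letters under the peaks.

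Of 32 other genes of creatine, adenylate and nucleotide exchange, globins and related enzymes, 28 were open at a start in GFP- nuclei and 29 in GFP+ nuclei. Ngb, Ckmt1 and Ampd1, known from neurons, from tissues other than striated muscle and from skeletal muscle, had none in either. Ak7 was open at a start in GFP+ nuclei alone, at rank 6.88. The median difference over the 29 genes with a TSS peak in either list was -0.241. Cygb, a globin of fibroblast-like cells, fell from 87.6 to 38.7, and Gatm, the first enzyme of creatine synthesis, rose from 14.5 to 34.5, just past 20 points. The next largest differences were those of Ampd2 (-14.0) and Ak8 (-4.54) below and of Ak7 (6.88) and Ampd3 (1.60) above, none of them past 20 points. Gamt, the second enzyme of creatine synthesis, ranked 99.6 in GFP- and 99.4 in GFP+ nuclei, and Fabp3, the fatty acid binding protein of heart muscle, ranked 99.8 and 99.9.

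The genes most like a member were found by the distance over 4 values, TSS rank and gene body coverage in each list. For Ckb, with the largest difference, the nearest were Nat14, at a distance of 15.2, and Gdf15, at 17.3. Nat14 ranked 98.8 in GFP- and 46.0 in GFP+ nuclei, and Gdf15 ranked 97.6 and 64.1. For Adprhl1, with the smallest difference, the nearest were Gm42742, at 1.00, and Tst, at 1.08, so Ckb had no neighbour as close as those of Adprhl1.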

How the data were processed

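ATAC-Seq libraries of sorted GFP- and GFP+ heart nuclei, 2 replicates each, were grouped by their labels. Per the study's methods and the submitters' processing notes, reads were trimmed (fastp), aligned to mm10 (Bowtie2 2.3.5.1 in the notes), filtered by quality (samtools) and cleared of duplicates (Picard). The authors then reduced libraries to a common size and ran Genrich, set to its ATAC-Seq mode, on both replicates of a population together, without the mitochondrial and Y chromosomes and the ENCODE blacklist. The area used here is a signal that the authors' caller added up along each peak and deposited. The deposited score has an upper limit of 1000 and was not used for ranking. The −log10 p-value, deposited for the summit of each peak, served in 1 alternative. Neither read counts nor replicate values are part of a peak list, so there is no test and no p-value, and the length of a list depends on depth and on signal over background.

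Genes and starts came from GENCODE M21 on GRCm38. Peaks were ranked by area within each list. A gene without a TSS peak had rank 0. Lists were compared at an overlap of at least 1 bp, and flanks were 50 kb. A difference above 20 points was counted as a change. Calculations used Python 3.11.15, numpy 2.4.6, pandas 2.3.3, scipy 1.17.1, pysam 0.24.0 and matplotlib 3.10.9, and the overlap and ranking steps were tested on simulated data. The 7 genes, the other gene lists, the words and the settings were chosen with earlier results of these data known. Named genes were the 7 members, the energy pathway genes with a TSS peak in only 1 list or with the 3 largest differences in each direction, the nearest gene of the highest-ranked flank peak and of the highest-ranked peak found in only 1 list, and the 2 genes most like the members with the largest and the smallest difference. Other neighbours of a peak described, Gamt and Fabp3 and the 3 pathway genes without a TSS peak were named after their values were seen. Alternatives changed the TSS window and definition, the ranking measure, the smallest area kept, the list length, the overlap and the flank, and joined neighbouring peaks. The difference of 20 points counted as a change was the same in all of them.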

Additional observations from a re-analysis of the deposited data

How the results depend on the processing

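No paired analysis was possible because each list was called from both replicates together and holds no values per replicate, and for the same reason no replicate could be left out. All 7 genes kept a TSS peak in both lists under every alternative but one: with the 5′ end of the gene record as the start, 5 did, without Ckm and Mb. The count of genes lower in GFP+ nuclei by more than 20 points, 1 as reported, was 2 with peaks ranked by summit p-value (Slc6a8 at -21.9, Ckb at -29.5). It was also 2 without the smallest 25% of areas (Slc6a8 at -20.8, Ckb at -42.8). That setting by its construction stretches rank differences where the peaks of both lists remain. Of all genes, 7.44% were lower by more than 20 points in each of these settings. The count was 0 with peaks closer than 200 bp joined (Ckb at -9.20) and 0 with peaks closer than 1000 bp joined (Ckb at -6.59), alternatives chosen after seeing the data. There 7.09% and 6.98% of all genes were lower by more than 20 points. Ranked by area per bp, Ckb was at -6.08 and Slc6a8 at -22.0, which left the count at 1, against 9.73% of all genes. The median difference of the 7 genes ranged from -5.09 (area per bp) to 0.495 (GFP- list cut to the length of the GFP+ list, where the median over all genes was 0.417, and 5.35% of genes were lower and 3.31% higher by more than 20 points). With an overlap of 50% of both peaks required, 70.4% of GFP- and 68.7% of GFP+ body and flank peaks were shared, against 60.7% and 73.7% of all peaks. The 7 gene bodies together were covered over 31.8% by GFP- and 30.2% by GFP+ peaks, over 30.5% and 28.7% without the first 1000 bp, and over 30.9% and 29.6% without the smallest 25% of areas. Depth limits what a missing peak shows, since a peak below the authors' threshold is not listed.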
